A study of Mus musculus with 42 samples.

Results

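Genes other than olfactory receptors were compared between main olfactory epithelium exposed to the odour of a bacon-flavoured diet (BFD) and epithelium exposed to no odour. The measure was the ratio of a gene in the pulldown of phosphorylated ribosomes to the same gene in the input, with pulldown and input taken from the same pool of tissue. The genes were all those of the count table whose name does not mark an olfactory receptor, 43504 of 44674. Of these, 20260 had enough counts to be tested, and 217 of the 20260 had no gene name and could include receptors.

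The olfactory epithelium holds sensory neurons, their basal progenitors, supporting cells and the glands that make nasal mucus. Glands secrete lipocalins, which are carrier proteins that can bind odorants or pheromones, together with proteins of the BPI-fold (Bpif) family. Ribosomal protein S6 is phosphorylated when a cell is active or when growth signals reach it. An antibody against phosphorylated S6 therefore pulls down ribosomes and the messenger RNA on them preferentially from such cells, and the input holds the RNA of the whole homogenate.

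The mice were adult males of strain C57BL/6NCrl, the exposure lasted 1 h, and each pool combined 4 epithelia. The 5 no-odour pools are numbered 1, 2, 3, 4 and 6, and the 5 BFD pools 1 to 5. The odours of normal chow (NCD, 6 pools) and of a lard-based high-fat diet (HFD, 5 pools) entered the same fit. All groups share strain, sex, tissue and antibody, and they differ in the odour. Nothing in the labels gives a date or batch for a pool, so a batch and the odour cannot be told apart. All p-values measure the spread between pools.

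The libraries held 24839555 to 36781553 counts each. Some differences between pools bear on every result. Ribosomal RNA took 19.3% to 28.1% of the input counts without odour and 9.69% to 12.8% with BFD odour, with no overlap. An exact permutation test of these 2 groups gave p = 0.00794 (two-sided), the smallest that 252 splits allow. The ribosomal RNA share of the input was 12.6% to 17.4% with NCD odour and 9.39% to 18.9% with HFD odour. The no-odour inputs thus lay above those of every odour group. Mitochondrial mRNA, which cytosolic ribosomes do not carry, had a pulldown share 0.51 times its input share in BFD pool 1, 0.31 in BFD pool 4 and 0.196 in no-odour pool 6, against 0.0425 to 0.0825 in the other pools of both groups. The plot of mitochondrial mRNA by pool shows these 3 pools above the rest of the no-odour and BFD groups. In the other odour groups, NCD pool 2 (0.21) and HFD pool 6 (0.221) also lay above no-odour pool 6. The part of these differences in the results below was not tested beyond the settings given.

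**Figure D1:**
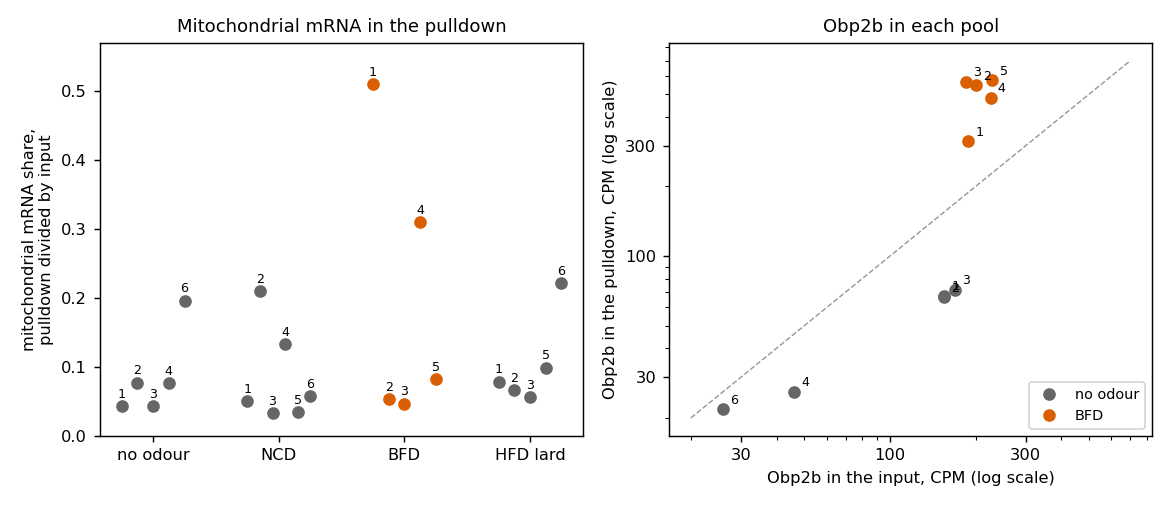
Left, share of mitochondrial mRNA in the pulldown divided by its share in the input, 1 point per pool with its number; BFD pool 1 is the highest at 0.51. Right, Obp2b level in CPM (normalized counts scaled to the library size, log axes) in the pulldown against the input of each pool, with a dashed line where both are equal; the BFD pools lie above the line and the no-odour pools below it.

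With BFD odour the ratio was higher for 2423 of the 20260 genes (12%) and lower for 2219 (11%) at an adjusted p under 0.05 in edgeR's quasi-likelihood test. At an adjusted p under 0.001 the counts were 488 (2.41%) and 279 (1.38%). The median change over all genes was -0.01 on the log2 scale. A ratio can move with either library. Of the genes whose ratio rose, 73.2% had a lower input and no called change of the pulldown, and of those whose ratio fell, 67.1% had a higher input and no called change of the pulldown. Tested alone, the input was higher for 3906 genes (19.3%) and lower for 4175 (20.6%), and the pulldown was higher for 1614 (7.97%) and lower for 1636 (8.08%). Without BFD pool 1 the ratio was higher for 2862 genes and lower for 2763. Without no-odour pools 4 and 6 the counts were 1606 and 1525, and with the ribosomal RNA ratio of each pool as a covariate 1260 and 905.

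Most of the genes with the smallest p among those that rose encode proteins secreted by glands. Bpifb9a (chr2:154257854-154271245, GRCm38), a Bpif family member of nasal and other glands, had 1408, 1565, 1550, 1011 and 1045 CPM (the normalized, library-scaled unit of edgeR) in the pulldowns of no-odour pools 1, 2, 3, 4 and 6. In the pulldowns of BFD pools 1 to 5 it had 4419, 6142, 7461, 6650 and 7043 CPM. Every BFD pulldown was thus above every no-odour pulldown, and pool 1 was the lowest of them. Its input had 4718, 4784, 4976, 2594 and 1804 CPM without odour and 3440, 3509, 4059, 4170 and 3942 with BFD odour, so that the input ranges overlapped. The log2 ratio averaged -1.44 ± 0.39 (SD, n = 5) without odour and 0.71 ± 0.21 (n = 5) with BFD odour. The change was 2.15 (SE 0.14, adjusted p = 1.42e-10, edgeR). The pulldown alone changed by 2.28 and the input by 0.02. In bulk tissue, fewer cells of a type and less RNA per cell cannot be told apart.

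The promoters of 5 of these genes and of Lcn3 are shown because they share a TATA box sequence. They cover 100 bases upstream of the RefSeq start on the + strand of GRCm38.p6, 5′ to 3′, with the hexamer TATAAA in capitals.
Bpifb9a, chr2:154257779-154257878: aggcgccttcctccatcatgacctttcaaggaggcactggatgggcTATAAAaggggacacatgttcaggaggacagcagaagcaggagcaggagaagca
Bpifb9b, chr2:154307144-154307243: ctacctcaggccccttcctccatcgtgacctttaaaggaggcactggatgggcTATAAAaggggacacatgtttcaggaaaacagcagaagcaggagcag
Obp2b, chr2:25736907-25737006: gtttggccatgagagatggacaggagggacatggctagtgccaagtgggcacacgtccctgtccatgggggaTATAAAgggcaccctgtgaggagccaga
Pip, chr6:41847449-41847548: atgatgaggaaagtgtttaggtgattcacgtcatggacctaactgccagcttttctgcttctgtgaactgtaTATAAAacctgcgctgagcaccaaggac
Wfdc18, chr11:83708904-83709003: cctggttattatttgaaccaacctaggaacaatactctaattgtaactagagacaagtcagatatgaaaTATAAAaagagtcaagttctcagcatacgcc
Lcn3, chr2:25765433-25765532: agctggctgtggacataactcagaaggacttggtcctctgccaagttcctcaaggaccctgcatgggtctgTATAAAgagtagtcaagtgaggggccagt

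The hexamer, searched on the gene's strand only, stood in this window in 5 of the 9 promoters matched among the 12 genes of smallest p that rose, and in 3.8% of all 32851 promoters of the table. Between 40 and 16 bases before the RefSeq start it stood in 3 of the 9 (Obp2b, Pip and Wfdc18) and in 1.99% of all promoters. In Bpifb9a and Bpifb9b it began 54 and 47 bases before that start. The gene starts printed in the text come from GENCODE, and those of Bpifb9a, Bpifb9b and Pip lie inside these windows. Positions were not counted from the GENCODE starts. It stood in 0 of the 14 promoters matched to 11 of the 12 genes of smallest p that fell. Lcn3 is not among the 12 and was printed for its family. The match is a description of letters.

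The other 11 genes of smallest p that rose lie near one another in part. Bpifb5 (chr2:154223742-154240902) and Bpifb9b (chr2:154307227-154320646) flank Bpifb9a. 2310003L06Rik (chr5:87969459-87972870), Cabs1 (chr5:87979439-87981544), Odam (chr5:87885029-87894174) and Gm28434 (chr5:87969517-88008277) share a stretch of chromosome 5. Obp2b (chr2:25737009-25740097) and Lcn4 (chr2:26667674-26671282) belong to the lipocalin cluster of chromosome 2. Pip (chr6:41847535-41852065), Wfdc18 (chr11:83709015-83711348) and Dmbt1 (chr7:131032053-131121630) stand alone. Bpifb9a and Bpifb9b share 72.2% and 80.5% of their 31-base words with other genes, mostly each other, and Gm28434 shares 78.7%, mostly with Smr3a. The counts of these 3 genes are therefore uncertain, while Bpifb5, Pip, Wfdc18, Cabs1, Odam, Dmbt1 and Lcn4 share 0%.

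Bpifb5 changed by 1.97 (SE 0.13, adjusted p = 2.65e-10) and Bpifb9b by 1.85 (SE 0.13, adjusted p = 5.93e-10), all adjusted p in this paragraph being from edgeR. Wfdc18, a secreted protein with a whey acidic protein domain, had 713 to 937 CPM in the no-odour pulldowns and 2407, 4738, 4668, 3838 and 4749 in those of BFD pools 1 to 5. The BFD pulldowns lay above all no-odour pulldowns again, with pool 1 lowest, and the ratio changed by 2.42 (SE 0.18, adjusted p = 7.53e-09). Pip, the prolactin-induced protein of saliva and tears, had 3.52 to 6.83 CPM in the no-odour pulldowns and 21.8 to 39.2 in the BFD pulldowns (change of the ratio 2.37, SE 0.18, adjusted p = 2.19e-09). Dmbt1, a mucosal scavenger receptor protein, had 12.9 to 33.4 CPM in the no-odour pulldowns and 109 to 206 in the BFD pulldowns, and its input was higher too, by 1.02 (change of the ratio 1.62, SE 0.14, adjusted p = 1.48e-08). In all 3 the pulldown rose well beyond the spread between pools. Odam, a secreted protein first known from ameloblasts, changed by 2.31 (adjusted p = 7.53e-09), Cabs1 by 2.30 (2.65e-09), 2310003L06Rik by 2.15 (1.65e-09) and Gm28434 by 3.28 (7.71e-08). For the 12 genes the BFD and no-odour ratios did not overlap. BFD pool 1 had the lowest BFD ratio in 12 of 12 genes and no-odour pool 6 the highest no-odour ratio in 11 of 12. The 12 were chosen by p, so this describes them. Over all genes, every BFD ratio was above every no-odour ratio for 6.43% and below for 6.47%.

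**Figure D2:**
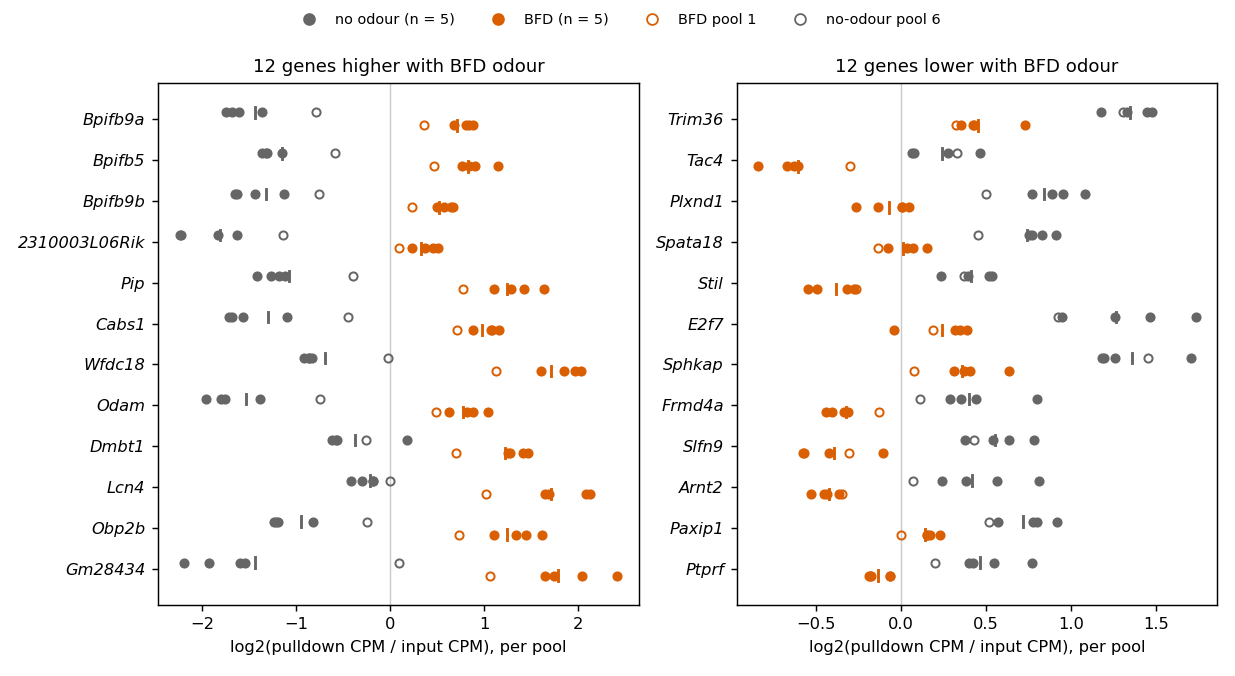
Log2 ratio of pulldown to input CPM in each pool for the 12 genes of smallest p that rose (left) and that fell (right) with BFD odour; points are pools (n = 5 per group), open points mark BFD pool 1 and no-odour pool 6, and vertical bars are group means. No gene has overlapping groups, and on the left the open points are those nearest to the other group for most genes.

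Lipocalins and odorant-binding proteins rose as a family. Of 12 members tested, 9 rose and 0 fell, with a median change of 2.01, against 12%, 11% and -0.01 over all genes. The rise was not particular to BFD odour, as the median over no odour was 2.43 with NCD and 2.09 with HFD. The pulldown alone was higher for 10 members and lower for 1, and the input was higher for 2 and lower for 5. The number that rose was also 9 without BFD pool 1, without no-odour pools 4 and 6, with the ribosomal RNA covariate, and with trends over transcript length and GC content taken out.

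Obp2b, an odorant-binding protein, had 67.6, 66.3, 71.5, 26 and 21.8 CPM in the no-odour pulldowns of pools 1, 2, 3, 4 and 6 and 313, 549, 566, 484 and 577 in the BFD pulldowns. Its input had 155, 155, 169, 46.1 and 26 CPM without odour and 185 to 229 with BFD odour. No-odour pools 4 and 6 were thus the lowest in both libraries, and the BFD pools were above all no-odour pools in both. The ratio changed by 2.21 (SE 0.18, adjusted p = 5.58e-08, edgeR). Lcn4, described as a carrier of small lipophilic molecules in nasal and vomeronasal glands, had 7.52, 7.53, 6.7, 3.22 and 3.27 CPM in the no-odour pulldowns and 27.6, 53.7, 58.7, 47.2 and 55.1 in the BFD pulldowns. Its input went from 3.27 to 9.27 CPM without odour to 12.3 to 17 with BFD odour, and the ratio changed by 1.94 (SE 0.17, adjusted p = 5.31e-08, edgeR). Lcn3, its near relative, had 7.2 to 21.1 CPM in the no-odour pulldowns and 61, 132, 130, 110 and 134 in the BFD pulldowns (change of the ratio 1.82, adjusted p = 7.12e-07, edgeR). In these 3 lipocalins both the pulldown and the input were above the no-odour range in every BFD pool.

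Obp1a, Mup5, Lcn11 and Obp1b rose with a lower input. Obp1a, an odorant-binding protein, had 84.9, 95.3, 95.9, 160 and 136 CPM in the no-odour pulldowns and 204, 333, 325, 292 and 328 in the BFD pulldowns. Its input fell from 162 to 419 CPM to 123 to 153, a change of -1.28, and the ratio rose by 2.62 (SE 0.30, adjusted p = 3.38e-05, edgeR). Mup5, a major urinary protein, showed the extreme case, with 54.1 to 72.7 CPM in the no-odour pulldowns and 45.1 to 74.5 in the BFD pulldowns. The pulldown ranges of Mup5 overlapped, while its input had 206, 198, 208, 92.1 and 50.8 CPM without odour and 25.6 to 29.3 with BFD odour. Its ratio rose by 2.21 (adjusted p = 4.12e-05, edgeR) through an input change of -2.46. Mup4 rose by 2.04, Lcn11 by 2.34, Obp2a by 2.07 and Obp1b by 1.98, with input changes of -0.50, -0.93, 0.22 and -0.55. The input changes of Mup4 (adjusted p = 0.0515) and Obp2a (adjusted p = 0.521) did not pass, and the pulldown of Obp2a changed by 2.50. Mup4 and Mup5 share 38% and 37% of their words with other genes, mostly each other, Obp1b shares 80.7%, mostly with Gm14743, and Obp2b and Obp2a share 14.2% and 14%. The members that did not pass were Lcn12 (1.02, adjusted p = 0.127), Mup6 (1.28, adjusted p = 0.147) and Lcn2 (-0.20, adjusted p = 0.257).

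The Bpif family split. Of 11 members tested, 3 rose (those named above) and 2 fell, against 12% and 11% of all genes, and the median was -0.34. The number that fell was 4 without BFD pool 1, 5 without no-odour pool 4, 4 without no-odour pools 4 and 6 and 5 without the 3 pools of high mitochondrial ratio. Bpifb3 had 1733, 1778, 1799, 1552 and 1391 CPM in the no-odour pulldowns and 918, 627, 623, 806 and 664 in the BFD pulldowns. The groups did not overlap, and the ratio fell by 0.69 on the log2 scale (SE 0.12, adjusted p = 2.30e-04, edgeR). Bpifb6, its neighbour in the family, fell by 0.53 (adjusted p = 0.00648). The pulldown alone was lower for 6 members, among them Bpifa1 (-0.61) and Bpifb1 (-0.41), secreted proteins of the airway surface. Bpifa6 had 28.4 and 33.1 CPM in the pulldowns and 53.5 and 45.6 CPM in the inputs of no-odour pools 4 and 6, and at most 0.509 CPM in every other library. These 2 pools stand apart from the other no-odour pools in that gene and in the lower gland input.

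The marker list of Bowman and nasal glands had 9 of 18 members higher and 2 lower (median 0.46), against 12% and 11% of all genes. The share lower, 11.1%, was thus near that of all genes. Of the 9 that were higher, 7 are lipocalins, Dmbt1, Pip or Odam. Scgb2b27, a secretoglobin, rose by 2.29 (adjusted p = 9.78e-05, edgeR), and Ccl28, a mucosal chemokine, by 0.57 (adjusted p = 0.00356). The 2 that fell were Sox9, a transcription factor of gland cells, by 0.39 (adjusted p = 0.00149), and Muc5b, the gel-forming mucin, by 0.71 (adjusted p = 0.0062). The summed level of the list overlapped between the groups, at 15487 to 19089 CPM in the no-odour pulldowns and 13266 to 19439 in the BFD pulldowns. Secreted proteins of high change therefore rose within a gland list whose sum did not separate the groups.

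**Figure D3:**
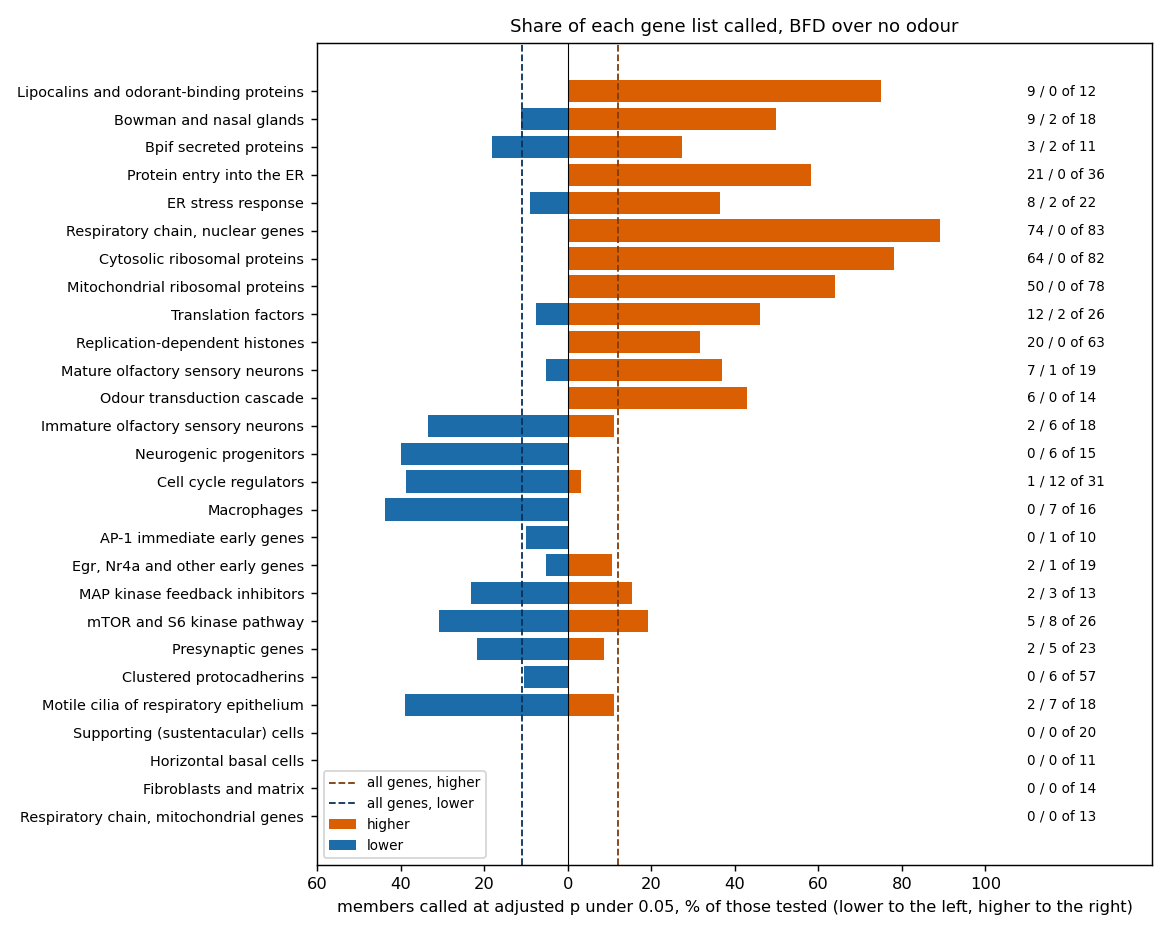
Share of the tested members of each gene list called higher (right) or lower (left) with BFD odour at an adjusted p under 0.05; dashed lines mark the shares over all genes, and the numbers at the right give members higher, lower and tested. Respiratory chain, ribosomal and lipocalin genes extend farthest to the right, and macrophage, progenitor and motile cilia genes farthest to the left.

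Genes for the entry of proteins into the endoplasmic reticulum (ER), the route that secreted proteins take, formed a list drawn up after values were seen. Of 36 members, 21 rose and 0 fell (median 0.35), against 12% and 11% of all genes. The pulldown alone was higher for 8, and the input was lower for 22. Tram1, which helps nascent chains into the translocon, had 66.7, 66.4, 65, 66.2 and 63.8 CPM in the no-odour pulldowns and 83.8, 85.5, 88.1, 82.7 and 87.9 in the BFD pulldowns. Its input had 97.1 to 114 CPM without odour and 80.9 to 93.2 with BFD odour, so that both libraries separated the groups, in opposite directions. The ratio changed by 0.71 (SE 0.08, adjusted p = 1.53e-06, edgeR). Spcs2, a signal peptidase subunit, rose by 0.81 (SE 0.10, adjusted p = 6.35e-06), Spcs1 by 0.89 (adjusted p = 6.47e-04), the translocon subunit Sec61b by 1.03 (adjusted p = 0.00111) and Tmem258, of the oligosaccharyltransferase, by 0.96 (adjusted p = 6.06e-04). With the ribosomal RNA covariate 13 members were called.

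In the ER stress response 8 of 22 members rose and 2 fell (median 0.15), against 12% and 11% of all genes. The share that fell, 9.09%, was thus near that of all genes. Xbp1, a transcription factor that expands the secretory pathway, had 47.8 to 59.3 CPM in the no-odour pulldowns and 62.3 to 72.3 in the BFD pulldowns, without overlap, and its ratio rose by 0.65 (SE 0.09, adjusted p = 4.00e-05, edgeR). Atf4, the transcription factor of the amino acid and stress response, rose by 0.67 (adjusted p = 0.00126), the co-chaperone Dnajb9 by 0.61 (adjusted p = 1.27e-04) and the asparagine synthetase Asns by 0.49 (adjusted p = 4.99e-04). Asns had 19 to 21.8 CPM in the no-odour pulldowns and 31 to 34.4 in the BFD pulldowns, again without overlap. The 2 that fell were the chaperones Hspa5, by 0.43 (adjusted p = 0.00122), and Hsp90b1, by 0.26 (adjusted p = 0.0236). For Hspa5 the input was higher (0.55) and the pulldown did not pass (0.14, adjusted p = 0.161).

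The lists of highest share were those of energy metabolism and translation, and there the input carried the change. Nuclear genes of the respiratory chain rose in 74 of 83 cases and fell in 0 (median 0.82), against 12% and 11% of all genes. Their median change was -0.81 in the input, with 78 of 83 lower, and 0.06 in the pulldown, with 1 higher and 2 lower. Sdhd, a subunit of succinate dehydrogenase, had 96.7, 94.7, 97.5, 101 and 97.7 CPM in the no-odour pulldowns and 87.6, 109, 109, 92.3 and 112 in the BFD pulldowns. These ranges overlapped, whereas the input had 103 to 151 CPM without odour and 65.6 to 75 with BFD odour, without overlap. The ratio changed by 0.79 (SE 0.11, adjusted p = 5.90e-05, edgeR). Ndufc1 rose by 1.04, Ndufa13 by 0.90 and Ndufb5 by 0.86, all subunits of complex I, with pulldown changes of 0.18, 0.20 and 0.02 that did not pass.

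Cytosolic ribosomal proteins followed the same course, with 64 of 82 higher and 0 lower (median 0.48, input median -0.69, pulldown median -0.14). The counts of called genes in this paragraph stand beside 12% higher and 11% lower over all genes. Rps13 had 158 to 183 CPM in the no-odour pulldowns and 139, 210, 185, 152 and 186 in the BFD pulldowns, while its input had 141 to 230 CPM without odour and 77.2 to 112 with BFD odour. Its input separated the groups and its pulldown did not (change of the ratio 0.84, SE 0.14, adjusted p = 3.26e-04, edgeR). Rps27l rose by 1.06, Rpl22l1 by 0.86 and Rpl24 by 0.73. Mitochondrial ribosomal proteins were higher in 50 of 78 cases (median 0.54), for example Mrpl42 (1.00) and Mrps14 (0.91). Translation factors were higher in 12 of 26, for example Naca (0.50) and Eif3e (0.43), and lower in 2, Eif4g1 (-0.45) and Eif3a (-0.54), scaffold subunits of the initiation machinery. The list of replication-dependent histones, most of whose messages lack a poly(A) tail, had 20 of 63 higher (median 0.55). In the input 53 were lower and in the pulldown 25. The list was drawn by symbol and also holds Hist2h2be, named below among genes that depend on activity. Hist1h4c had 102 to 136 CPM in the no-odour pulldowns and 66.1, 125, 126, 110 and 124 in the BFD pulldowns, an overlap, with a change of the ratio of 1.03. With the ribosomal RNA ratio as covariate the ribosomal protein count was 18 in place of 64, respiratory chain 55 in place of 74, mitochondrial ribosome 33 in place of 50 and histones 6 in place of 20. Without no-odour pools 4 and 6 the counts were 30, 62, 34 and 11, and without BFD pool 3 the histone count was 13.

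Of the 13 genes of the mitochondrial genome, 0 rose and 0 fell, although all 13 had a positive change (median 1.06). mt-Nd3 changed by 1.87 (adjusted p = 0.0544, edgeR). The input of all 13 was lower with BFD odour. BFD pools 1 and 4 and no-odour pool 6 were the pools of highest mitochondrial share in the pulldown. The median was 0.50 without BFD pool 1 and 0.33 without these 3 pools, with 0 called, and with the mitochondrial ratio as covariate it was 0.24, with 6 called higher. DESeq2 on pulldown divided by input called 4 higher.

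**Figure D4:**
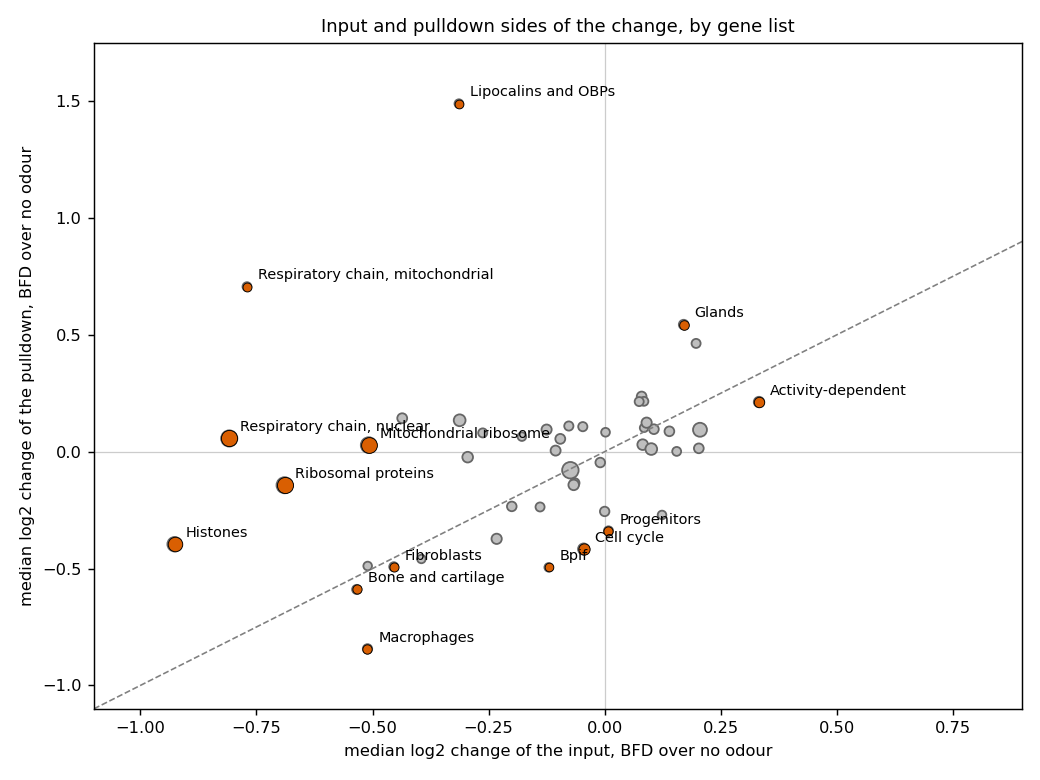
Median log2 change of the pulldown (vertical) against that of the input (horizontal) for each gene list, BFD over no odour; a point is a list, its area grows with the number of tested members, and the dashed line marks equal change of both libraries. Respiratory chain and ribosomal lists lie far to the left near 0 on the vertical axis, lipocalins lie at the top, and macrophages at the bottom.

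The direction of the change followed transcript length. Genes whose ratio rose had a median transcript length of 869 nt, those whose ratio fell 2160 nt, and all genes tested 1478 nt. Among protein-coding genes up to 500 nt, 31.8% rose and 5.96% fell, and among those over 4000 nt, 1.30% rose and 29.4% fell. The median input change went from -0.37 in the shortest class to 0.24 in the longest, and the median pulldown change from -0.07 to 0.03. The lists above hold short transcripts, with medians of 608 nt for the respiratory chain, 628.5 nt for ribosomal proteins and 539 nt for histones. With trends over length and GC content taken out in each library, 1904 of the 2423 genes that rose (78.6%) and 1590 of the 2219 that fell (71.7%) kept their call. The respiratory chain then had 70 members higher and ribosomal proteins 54.

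**Figure D5:**
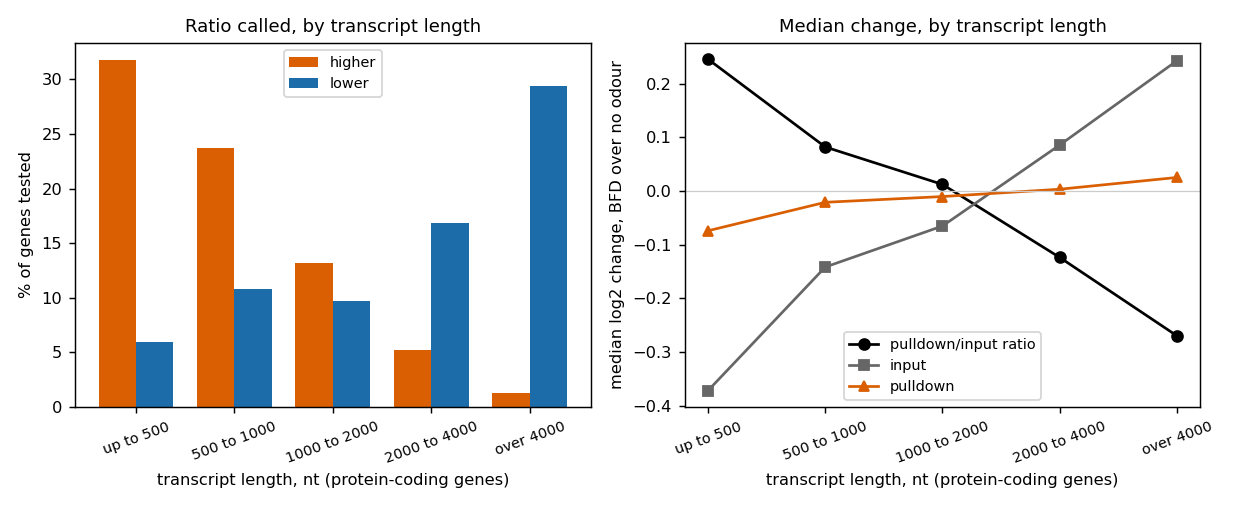
Left, percent of protein-coding genes called higher or lower with BFD odour by transcript length in nucleotides (403 to 4918 genes per class). Right, median log2 change of the ratio, the input and the pulldown in the same classes; the input line climbs with length while the pulldown line stays near 0.

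Mature olfactory sensory neurons had 7 of 19 marker genes higher and 1 lower (median 0.13), with 11 higher and 0 lower in the pulldown alone. The counts of this paragraph stand beside 12% higher and 11% lower over all genes in the ratio. In the pulldown alone the shares over all genes were 7.97% and 8.08%. Omp, the olfactory marker protein, had 6388, 6126, 6097, 7542 and 7433 CPM in the no-odour pulldowns and 6227, 8583, 7987, 7361 and 8284 in the BFD pulldowns, an overlap. Its input had 6525 to 8815 CPM without odour and 4662 to 5532 with BFD odour, without overlap, and the ratio rose by 0.64 (SE 0.10, adjusted p = 1.88e-04, edgeR). Among the 14 genes of the odour transduction cascade 6 rose and 0 fell. Gng13, a G protein subunit, rose by 1.33 (adjusted p = 6.14e-04) through an input change of -1.17, but it shares 46.2% of its words with other genes, mostly Chtf18. Cnga2, the channel subunit that opens with cyclic AMP, had 390 to 520 CPM in the no-odour pulldowns and 416, 630, 660, 608 and 667 in the BFD pulldowns, where only pool 1 fell inside the no-odour range. Its ratio rose by 0.31 (adjusted p = 0.0161), and Stoml3, a stomatin of the cilia, rose by 0.38 (adjusted p = 0.0212). The olfactory G protein alpha subunit Gnal did not pass (-0.14, adjusted p = 0.296). Without BFD pool 2 or without BFD pool 5 the transduction count was 3 and the mature neuron count 4. Among the 15 genes that end a response 3 rose, among them the calmodulin gene Calm2 (0.57), and 5 fell, among them the receptor kinase Grk3 (-0.58) and the calcium pump Atp2b2 (-0.61). Without no-odour pool 4 the number that fell was 3.

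Few immediate early genes, which neurons transcribe within minutes of activity, were called in the ratio. Of 10 AP-1 genes 0 rose and 1 fell, Jun (-0.30, adjusted p = 0.0145, edgeR), while 3 were higher and 2 lower in each library alone. Of 19 Egr, Nr4a and other early genes 2 rose, Btg2 (0.63, adjusted p = 2.65e-04) and Ier2 (0.49, adjusted p = 0.00573), and 1 fell, Arc (-0.97, adjusted p = 9.99e-04). The shares are near or below those of all genes. Without BFD pool 1, 2 AP-1 genes and 4 of the others rose. In the list with Egr and Nr4a genes the pulldown alone was higher for 9 and the input for 8. Fos, Fosb, Egr1, Nr4a1 and Pcdh10 are given next, chosen after their values were seen.

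Fos had 5.46, 5.31, 6.78, 6.48 and 5.67 CPM in the no-odour pulldowns and 11.5, 17.9, 18.5, 16.8 and 20.6 in the BFD pulldowns. Its input had 2.06 to 3.06 CPM without odour and 7.59 to 9.04 with BFD odour. Both libraries separated the groups in full, with changes of 1.63 in the input (adjusted p = 2.08e-10) and 1.52 in the pulldown (adjusted p = 1.67e-09, edgeR), and the ratio changed by -0.13 (SE 0.16, adjusted p = 0.603). Fosb changed by 1.97 in the input, 1.92 in the pulldown and -0.09 in the ratio (adjusted p = 0.817). Egr1 changed by 0.95, 1.20 and 0.23 (adjusted p = 0.123), and Nr4a1, an orphan nuclear receptor, by 1.46, 1.63 and 0.15 (adjusted p = 0.427). Nr4a1 had 42.3 to 65.7 CPM in the no-odour pulldowns and 103 to 173 in the BFD pulldowns, without overlap. A test of the ratio therefore did not call genes whose input rose as much as their pulldown.

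Genes whose level in sensory neurons depends on activity had 5 of 24 higher and 4 lower in the ratio (median 0.01). Over all genes 12% were higher and 11% lower. In the pulldown alone 12 of the 24 were higher and in the input 14. S100a5, a calcium-binding protein, had 2744, 2666, 2828, 3544 and 2900 CPM in the no-odour pulldowns and 2384, 4613, 4223, 3491 and 4172 in the BFD pulldowns, an overlap through BFD pools 1 and 4. Its input had 1565 to 2950 CPM without odour and 908 to 1128 with BFD odour, and the ratio rose by 1.16 (SE 0.17, adjusted p = 9.08e-05, edgeR). Lrrc3b, a leucine-rich repeat membrane protein, was higher in both libraries, at 142 to 234 CPM in the no-odour pulldowns and 283, 477, 519, 455 and 525 in the BFD pulldowns, with a change of the ratio of 0.57 (adjusted p = 7.80e-04). Pcdh10, an adhesion protein, changed by 1.32 in the input, 1.03 in the pulldown and -0.31 in the ratio (adjusted p = 0.144). Kirrel2, an adhesion protein of axon sorting, changed by 0.61, 0.76 and 0.13 (adjusted p = 0.452), and it was also chosen after its values were seen. The histone Hist2h2be (0.49), the quinone reductase Nqo1 (0.44) and Pcp4l1 (0.57) rose, and Tenm4 (-0.70), Plxna1 (-0.60), Nrp1 (-0.38) and Pcdh17 (-0.36), which guide axons or join cells, fell. Without no-odour pool 4 the number that fell was 2.

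The genes of smallest p that fell were of mixed function. Trim36, a ubiquitin ligase, had 151, 153, 135, 162 and 166 CPM in the no-odour pulldowns and 87.2, 114, 104, 89.4 and 96 in the BFD pulldowns, without overlap. Its input had 56.1 to 67.3 CPM without odour and 68.8 to 77.9 with BFD odour, also without overlap. The log2 ratio averaged 1.34 ± 0.12 (SD, n = 5) without odour and 0.45 ± 0.16 (n = 5) with BFD odour, and it changed by -0.89 (SE 0.09, adjusted p = 6.77e-07, edgeR). Tac4, a tachykinin precursor, fell in both libraries, from 55.5 to 62.2 CPM to 18.9 to 27.4 in the pulldowns and from 44.1 to 58.9 to 33.7 to 36.3 in the inputs. Its ratio changed by -0.85 (SE 0.10, adjusted p = 4.65e-06). The semaphorin receptor Plxnd1 changed by -0.91 (adjusted p = 1.34e-05) and Sphkap, an anchor of protein kinase A, by -0.999 (adjusted p = 3.63e-05). Sphkap had 18.9 to 22.4 CPM in the no-odour pulldowns and 9.73 to 13 in the BFD pulldowns. Each of these 4 genes was lower in the pulldown of every BFD pool than in that of any no-odour pool. Spata18 (-0.73), Stil (-0.79), E2f7 (-1.02), Frmd4a (-0.72), Slfn9 (-0.95), Arnt2 (-0.84), Paxip1 (-0.57) and Ptprf (-0.60) completed the 12, all lower in the pulldown by its own test.

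Of 31 cell cycle regulators, a list drawn up after values were seen, 12 fell and 1 rose (median -0.32), against 11% and 12% of all genes, and 21 were lower in the pulldown alone. E2f7, an atypical E2F repressor of the cell cycle, had 16.2, 18.1, 18.2, 16.6 and 16.5 CPM in the no-odour pulldowns and 11.2, 11.6, 11.4, 12.9 and 11.8 in the BFD pulldowns, without overlap. Ccnd1, cyclin D1, had 107, 127, 118, 116 and 119 CPM in the no-odour pulldowns and 93, 72.9, 69.8, 69.5 and 70.9 in the BFD pulldowns, with an input change of -0.05 (adjusted p = 0.560). Ccnd1 shares 22.3% of its words with other genes. Its groups did not overlap, the change lay in the pulldown, and the ratio fell by 0.60 on the log2 scale (SE 0.09, adjusted p = 6.92e-05, edgeR). The replication helicase genes Mcm2, Mcm3, Mcm4, Mcm6 and Mcm7 fell by 0.48, 0.63, 0.43, 0.55 and 0.32, and the centriole genes Stil and Plk4 by 0.79 and 0.67. Cdk4 rose by 0.30 (adjusted p = 0.0494).

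Of 15 neurogenic progenitor markers 6 fell and 0 rose (median -0.31), against 11% and 12% of all genes. In the pulldown 10 of them were lower, against 8.08% of all genes. Top2a, a topoisomerase of dividing cells, had 36.7 to 39.7 CPM in the no-odour pulldowns and 28.3, 24, 26.1, 36.5 and 25.3 in the BFD pulldowns, without overlap but with BFD pool 4 close to the no-odour range, and its input was higher (0.38). Its ratio changed by -0.84 (SE 0.13, adjusted p = 1.16e-04, edgeR) and that of the proneural factor Neurog1 by -0.48 (adjusted p = 0.0148). The 18 immature neuron markers were mixed, as 6 fell and 2 rose, but the median was 0.06 and 11 had a positive change. The share of these markers that rose, 11.1%, was near the 12% of all genes. Dpysl3, a growth cone protein, had 395 to 434 CPM in the no-odour pulldowns and 289 to 320 in the BFD pulldowns, without overlap, and fell by 0.61 (adjusted p = 5.90e-05). Dpysl5 (-0.78), Ablim1 (-0.66), Sox11 (-0.48), Dcx (-0.47) and Crmp1 (-0.32) fell as well, and Nrn1l and Stmn4 (0.44) rose (4 genes without BFD pool 1). With the ribosomal RNA covariate the progenitor count was 3, cell cycle 7 and immature neurons 5.

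Macrophage genes were lower in both libraries. Of 16 markers 7 fell in the ratio and 0 rose (median -0.31), against 11% and 12% of all genes. In the pulldown 15 were lower and in the input 13, against 8.08% and 20.6% of all genes. The summed level went from 818 to 1097 CPM to 512 to 611 in the pulldowns and from 702 to 1069 to 541 to 606 in the inputs, without overlap, and no marker was at 0 in all pools. H2-Ab1, of class II antigen presentation, had 67.6, 78.9, 75.3, 58.9 and 54.9 CPM in the no-odour pulldowns and 34.1, 33.2, 33.7, 38.4 and 38.1 in the BFD pulldowns, and its ratio fell by 0.53 (SE 0.11, adjusted p = 9.18e-04, edgeR). Csf1r, the receptor for macrophage growth factor, had 37.8 to 49.9 CPM in the no-odour pulldowns and 18.1, 28.7, 29.5, 29.6 and 29.2 in the BFD pulldowns, and fell by 0.51 (adjusted p = 0.00517). It shares 14.9% of its words with other genes. Neither gene overlapped between the groups. Without no-odour pool 2 or 3, or without BFD pool 2 or 3, the count was 4, and with the ribosomal RNA covariate it was 1.

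Fibroblast and matrix markers had 0 of 14 called in the ratio and 10 lower in each library, with Col1a1 at 883 to 1167 CPM in the no-odour pulldowns and 512 to 919 in the BFD pulldowns. Without BFD pool 1 the ratio of 2 was lower. The counts of this paragraph stand beside 12% higher and 11% lower over all genes. Bone and cartilage had 3 of 15 lower, the collagen Col2a1 (-0.70), the protease Ctsk (-0.45) and the transcription factor Runx2 (-0.45), and without no-odour pool 2, without no-odour pool 3 or without BFD pool 4 the count was 1. Supporting cells (20 markers) and horizontal basal cells (11) had 0 called in either direction, although 2 supporting cell genes were higher without no-odour pool 2 or 6. Single genes fell in neutrophils (Csf3r, -0.96) and T cells (Cd4, -0.88). Of 14 B and plasma cell genes 2 fell in the ratio, Ighm (-0.56) and Igha (-0.38), and 0 without no-odour pool 2, while 5 were higher and 1 lower in the input and 3 higher and 1 lower in the pulldown. Igha, the heavy chain of immunoglobulin A, was higher in both libraries, from 10.4 to 14.9 CPM to 19.5 to 24.5 in the inputs and from 17.7 to 20 to 20.8 to 31.5 in the pulldowns. Of 14 markers of ensheathing glia and Schwann cells 3 rose, among them Fabp7 (0.60) and Npy (1.15), and 0 fell. Without BFD pool 1 the counts were 2 higher and 5 lower, without no-odour pool 4 or 6 the number lower was 2, and without the 3 pools of high mitochondrial ratio 2 rose and 4 fell. Motile cilia genes of respiratory epithelium fell in 7 of 18 cases, for example the long genes Hydin (-0.88) and Dnah9 (-0.85), and 2 rose, among them the dynein light chain Dynlrb2 (0.70). In the pulldown alone 0 motile cilia genes were higher and 2 lower, and in the input 6 were higher and 6 lower. With the ribosomal RNA covariate 2 motile cilia genes fell. The part that fewer or more cells of these types had in the results above was not tested.

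In the mTOR and S6 kinase pathway, which phosphorylates S6, 5 of 26 genes rose and 8 fell (median -0.05). Over all genes 12% rose and 11% fell. The translation inhibitors Eif4ebp1 (0.80) and Pdcd4 (0.52) and the activator Rheb (0.46) rose, as did Ddit4 (0.52) and Rragc (0.32). Larp1 (-0.58), the S6 kinase family member Rps6ka2 (-0.50), the tumour suppressor Tsc1 (-0.49) and the mTORC1 scaffold Rptor (-0.45) fell, with 4 more. The pulldown of Pdcd4 was higher by 0.30 and that of Eif4ebp1 by 0.32. Without no-odour pool 4 the number that fell was 3, without pool 2 of either group or BFD pool 5 it was 4, without BFD pool 4 it was 5, and with the ribosomal RNA covariate it was 0. Of 13 feedback inhibitors of MAP kinase 2 rose, Dusp14 (0.45) and Spry2 (0.46), and 3 fell (1 without no-odour pool 4 or without BFD pool 2, 3 or 4). Of the 57 clustered protocadherins, long adhesion genes, 6 fell (for example Pcdhgb1, -0.60) and 0 rose. The share that fell, 10.5%, was near the 11% of all genes. With the length and GC trends taken out 0 fell and 3 rose. Without no-odour pool 4 the number that fell was 1, without BFD pool 2 it was 2, and without no-odour pool 2 or BFD pool 3 it was 3. Without no-odour pool 2, 2 rose.

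Genes of metabolism, hormones and stress had calls in both directions, to be read beside 12% higher and 11% lower over all genes. The insulin receptor Insr (-0.38, adjusted p = 0.0187, edgeR) and the insulin-like growth factor receptor Igf1r (-0.59, adjusted p = 0.0320, edgeR) fell. The adiponectin receptor Adipor1 rose (0.35, adjusted p = 0.0198, edgeR), so that 3 of 12 hormone receptors tested were called. Without no-odour pool 4 or BFD pool 2, 0 of these receptors fell. Of 25 genes of lipid uptake and storage 2 rose and 3 fell, the last being the lipoprotein receptor Lrp1 (-0.68) and the acyl-CoA synthetases Acsl1 (-0.44) and Acsl3 (-0.32). Of 87 odorant-metabolizing enzymes 3 rose and 4 fell, below the shares of all genes, among them the cytochrome reductase Por (-0.30). The enzyme count moved between 1 and 7 higher and between 0 and 7 lower as single pools were left out. In the cholesterol pathway 1 of 21 fell, Lss (-0.41), and 0 rose (2 without BFD pool 1 or no-odour pool 3). Of the clock genes Nr1d1 (-0.52) and Per2 (-0.60) fell and Nfil3 rose (0.49), and without BFD pool 1 the number that fell was 5. The heat shock genes Dnajb1 (0.56) and Hspe1 (0.68) rose and Hspa4 (-0.47) and Hsp90aa1 (-0.48) fell. The snoRNA host Snhg3 rose by 1.49 (adjusted p = 5.90e-05), with 52.4 to 62 CPM in the no-odour pulldowns and 46.3, 105, 96.1, 79.4 and 108 in the BFD pulldowns, an overlap through BFD pool 1. Snhg3 shares 70.9% of its words with other genes, mostly Gm17300, so its count is uncertain. Among trace amine-associated and formyl peptide receptors Taar4 rose (1.25, adjusted p = 0.00690), and Taar6 (-1.13, adjusted p = 0.0295) and Fpr2 (-1.25, adjusted p = 0.0259) fell, and without no-odour pool 1, BFD pool 2 or BFD pool 3 the number that fell was 0.

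The remaining lists held scattered calls, to be read beside 12% higher and 11% lower over all genes. Intraflagellar transport and BBSome genes, which build sensory cilia, rose in 6 of 35 cases, for example Ift43 (0.71) and Arl3 (0.66), and fell in 7, for example Ttc21b (-0.58) and Wdr19 (-0.53). Of 23 presynaptic genes 2 rose, the vesicle proteins Vamp2 (0.38) and Rab3a (0.45), and 5 fell, among them the active zone proteins Pclo (-0.82) and Unc13a (-0.56). Of 19 genes of receptor choice and trafficking 0 rose and 3 fell, the DNA methyltransferase Dnmt3a (-0.70) and the nuclear factors Nfix (-0.43) and Nfib (-0.41), and without BFD pool 1 the number was 5. Of 23 interferon response genes 1 rose, Ifi27 (0.41), and 2 fell, among them Stat2 (-0.51). Among blood vessel genes the tight junction protein Cldn5 rose (0.65) and Vwf fell (-0.60). Of 13 erythroid genes 2 rose, among them Bpgm (0.42). Ascl3 (0.79), a factor of ionocytes, rose among 15 tuft cell and ionocyte genes, and the carbonic anhydrase Car2 (0.28) among 11 genes of atypical sensory neurons. Respiratory secretory cells (10 genes), skeletal muscle (7) and vomeronasal receptors (7) had 0 called in either direction, but without BFD pool 1 the ratio of 3 respiratory secretory genes was lower, and without no-odour pool 4 that of 2. Without BFD pool 1, 5 presynaptic genes rose and 3 blood vessel genes fell. These counts are small.

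The BFD odour was also set against the other odours in the same fit. These comparisons share the no-odour pools, so the changes over no odour are given side by side only. Bpifb9a changed by 2.15 with BFD odour, 2.10 with NCD and 2.07 with HFD, and Wfdc18 by 2.42, 2.32 and 2.40. Trim36 changed by -0.89, -0.58 and -0.71. In the same order, the median of nuclear respiratory chain genes changed by 0.82, 0.57 and 0.56. That of cytosolic ribosomal proteins changed by 0.48, 0.36 and 0.30, and that of macrophage markers by -0.31, -0.40 and -0.48. These list medians thus moved in the same direction with each odour. Tested directly, BFD and NCD odours differed in 1 gene (0.00494%) and BFD and HFD odours in 10 (0.0494%). The numbers depended on the fit. Against NCD they ranged from 0 to 797, with 26 for the compared groups alone, 797 when BFD pool 1 was left out of that fit as well, 62 without no-odour pools 4 and 6, and 21 by DESeq2 on pulldown divided by input. Against HFD they ranged from 3 to 73. A difference that did not pass is not shown to be absent.

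Top1, a topoisomerase, differed from NCD. Its log2 ratio averaged 0.00 ± 0.10 (SD, n = 5) with BFD odour, 1.06 ± 0.29 (n = 6) with NCD, 0.79 ± 0.28 (n = 5) with HFD and 0.72 ± 0.42 (n = 5) without odour. The difference from NCD was -1.06 (adjusted p = 0.00733, edgeR), and the call was lost in 4 of 26 settings, namely without BFD pool 3, without the 3 pools of high mitochondrial ratio, with the ribosomal RNA covariate and with no filter on low counts. Lcn4, Lcn3 and Dmbt1, gland genes described above, differed from HFD. Lcn4 averaged 1.71 ± 0.45 with BFD odour, 1.89 ± 0.25 with NCD, 0.59 ± 0.18 with HFD and -0.22 ± 0.16 without odour, and it was higher than with HFD by 1.13 (adjusted p = 5.35e-04). Every BFD pool was above every HFD pool, the lowest being 1.01 and the highest 0.86. Lcn3 was higher by 1.07 (adjusted p = 0.00286) and Dmbt1 by 0.70 (adjusted p = 0.0177), and the order of the odours was the same in both, with HFD between no odour and the other two. The call of Dmbt1 was lost in 9 of 25 settings, without each of BFD pools 2 to 5 among them. Stom, a membrane protein, was higher by 0.39 (adjusted p = 0.0308), Nupl1, a nucleoporin that shares 55.2% of its words with other genes, by 0.40 (adjusted p = 0.0177), and 4933404O12Rik differed by -0.46 (adjusted p = 0.0150). Their calls were lost in 13, 10 and 5 of 25 settings. Gm3667 differed by -1.85 (adjusted p = 0.0276) at about 1 CPM in the BFD libraries and shares 94.5% of its words with other genes, and its call was lost in 12 of 25 settings. The other 3 genes have no name and could be receptors.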

How the data were processed

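Each pool gave a pulldown and an input library. The authors quantified genes with Salmon on GRCm38 through the nf-core rnaseq pipeline and deposited the estimated counts per gene, without normalization. The annotation release is not given in the sources used here, and names were taken from GENCODE M21. These expected counts need not be whole (30.9% of values were not) because reads that match several genes are divided by estimation, so near-identical genes are uncertain.

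Counts were rounded, genes were kept by filterByExpr (minimum count 10), and the robust quasi-likelihood fit of edgeR 4.0.16 (limma 3.58.1, R 4.3.3) covered all 42 libraries after TMM normalization, with pool, pulldown and pulldown-by-odour as terms. P-values are two-sided and adjusted (Benjamini-Hochberg) over 21168 genes, 908 of them receptors. The common coefficient of variation of this fit was 12%. As each pool has its own term, it describes how the pulldown varied against the input of its own pool. Log2 ratios per pool used a prior count of 2. Input and pulldown sides were edgeR fits on those libraries alone. Of 90 pairs of libraries within groups, the smallest chi-square per degree of freedom was 3.33, so each was counted once. The fit was tested on simulated data. It recovered 73 of 100 genes given a log2 change of 1 and 13 of 100 given 0.5, with 3 false calls. Most genes given a change of 0.5 were thus not called. The simulated counts varied independently around fixed means, without pool effects and without a shift of the input between groups. The false calls therefore do not measure how many calls in the real data are false. Pulldown and input are paired by pool; replicate numbers do not pair pools of different odours.

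Members, gene lists and named genes were chosen with earlier results of these data known, and the lists for ER entry and cell cycle regulators after values were seen. The rule named the 12 genes of smallest p in each direction and up to 4 called genes per list. Alternatives included DESeq2 1.42.0, other filters, covariates for ribosomal and mitochondrial RNA, and leaving out each pool. The length and GC trend, and the fits without 3 pools of high mitochondrial ratio and without no-odour pools 4 and 6, were chosen after seeing the data. Sequences came from RefSeq (GRCm38.p6). Shared words are 31-base stretches of transcripts found in another gene. They made up 98.1% of the words of mt-Nd3, 64.9% of those of Nrn1l and 63.9% of those of Pcdhgb1. For Rpl24, Hsp90aa1 and Fpr2 the shares were 52.7%, 51.5% and 43%. The counts of these genes are uncertain as well.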

Additional observations from a re-analysis of the deposited data

Results flagged for a closer look

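In 6 of the 48 groups of 5 pools behind the 24 genes of smallest p, 1 pool lay far from the others of its group. For independent groups not chosen by their values, chance does this in about 1 group of 20. The 24 genes were chosen by p and share the same pools, so the 6 cannot be set against that rate. No-odour pool 6 had the highest log2 ratio of its group by such a gap for Bpifb5 (-0.589), Pip (-0.392), Wfdc18 (-0.0224) and Gm28434 (0.0957). The value of BFD pool 1 for Dmbt1 was far below the other BFD pools at 0.695, and that of BFD pool 2 for Trim36 far above them at 0.727. No-odour pool 6 also stood far above its group in the mitochondrial mRNA share of the pulldown over that of the input (0.196).

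Differences between odours were marked where the change over no odour differed in its own test. Against HFD these were Lcn4 (1.13), Lcn3 (1.07), Dmbt1 (0.699), Nupl1 (0.397), Stom (0.39), 4933404O12Rik (-0.461), Gm3667 (-1.85) and 3 genes without a name (1.58, 1.35 and 0.875), and against NCD it was Top1 (-1.06). In 24 settings each, 2 of the 3 unnamed genes kept the call in all, and the third in 15. Top1 kept its call in 22 of 26 settings. In 25 settings each, Lcn4 kept it in 24, losing it without the pool term, Lcn3 in 23, 4933404O12Rik in 20, Dmbt1 in 16, Nupl1 in 15, Gm3667 in 13 and Stom in 12. Leaving out 1 pool ended the call of Top1 (BFD pool 3), of 4933404O12Rik (HFD pool 3), of Dmbt1 (BFD pools 2 to 5, HFD pools 1 and 3), of Nupl1 (BFD pools 2, 4 and 5, HFD pools 3 and 6), of Gm3667 (BFD pools 3 to 5, HFD pools 2, 3 and 5), and of Stom (BFD pools 2 to 5, HFD pools 2, 3, 5 and 6). These are the single pools that ended them, each left out alone.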

How the results depend on the processing

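Among the 174 named genes, those called kept their direction in each alternative that tested them. Sult1d1, not called (0.23, adjusted p = 0.0592), changed sign with length and GC trends taken out (-0.10). The 24 genes of smallest p kept their direction and call in all 25 alternatives, the largest adjusted p being 0.000868 among those that rose and 0.00458 among those that fell (edgeR and DESeq2). Leaving out each pool in turn gave 1778 to 2862 genes higher and 1423 to 2763 lower with BFD odour, the lowest of the latter without no-odour pool 4, 0 to 2 different from NCD and 5 to 25 different from HFD (25 without BFD pool 1). At an adjusted p under 0.001 the 4 counts, in the order higher, lower, NCD, HFD, were 488, 279, 0 and 3, and with the ribosomal RNA ratio as covariate 1260, 905, 0 and 5. Without no-odour pools 4 and 6 they were 1606, 1525, 62 and 25. With the compared groups alone, 1117 were lower, 26 differed from NCD and 5 from HFD, and without BFD pool 1 as well, 797 and 23. DESeq2 gave 11 and 37 against NCD and HFD with the same design, and 21 and 73 on pulldown divided by input. No filter gave 2 against NCD, the mitochondrial covariate 17 and 27, and leaving out the 3 pools of high mitochondrial ratio 0 and 20. The causes were not tested.

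The replicate block gave 2106 higher, 1946 lower, 4 against NCD and 13 against HFD. The numbers share no animal, and deviations of same-numbered BFD and no-odour pools correlated at -0.136, 0.0326, 0.0604 and 0.112. Without a term for the pool 2487 were higher and 2088 lower. Of the 2423 genes that rose, the ribosomal RNA covariate kept 49.5% and the fit without no-odour pools 4 and 6 kept 61.3%; of the 2219 that fell, 38.2% and 62.1%. Of the 174 named genes, 43 lost their call with the ribosomal RNA covariate, 28 with the compared groups alone and 21 without no-odour pools 4 and 6, and leaving out 1 pool of the compared groups ended 2 to 16 calls (16 without BFD pool 2). Relative counting error is larger for genes of few CPM, such as Fosb, Arc and Gm3667.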
